A study of Homo sapiens with 6 samples.

Results

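DEAD box and DEAH box proteins are RNA helicases, and their transcripts were followed in HCT116, a line derived from a colorectal carcinoma, in libraries labelled siMTA1 and in control libraries. Members were taken by name: every gene of the deposited table that is classed as protein-coding and whose symbol starts with DDX or DHX and a number. The rule found 56 members, 40 DDX and 16 DHX genes, among 36651 genes, of which 17656 are protein-coding. Of the 56, 50 reached a mean of 1 FPKM over the 6 libraries and were tested. FPKM counts fragments per kilobase of gene, scaled to the mapped total of the library, so levels can be set beside each other between genes. The siMTA1 group has 3 libraries and the control group has 3, all of polyA RNA from HCT116 cells of colon origin. The sample titles of the siMTA1 group read CrMTA1, whereas the design text speaks of siMTA1 and the descriptions of siMTA, so whether RNA interference or another method lowered MTA1 is not settled by the labels. The controls are called WT in the titles and Ctrl in the descriptions, and no control siRNA is named. Separate cultures are not mentioned for the libraries of a group, so p-values measure the spread between these libraries, which may be technical.

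RNA helicases of this family bind RNA and use ATP to open short duplexes, to load or strip proteins, or to hold RNA in place. The family names come from the amino acids of a conserved motif that binds ATP, Asp-Glu-Ala-Asp in DEAD box and Asp-Glu-Ala-His in DEAH box proteins. Individual members drive steps of pre-mRNA splicing, ribosome assembly in the nucleolus, mRNA export, translation and decay, mitochondrial RNA handling and the sensing of viral RNA. Each member stands in 1 role class, given from general knowledge of the protein, and 6 members whose role is broad or unclear form a class of their own. DDX26B carries the family name but is the gene that RefSeq now calls INTS6L, after a subunit of the Integrator complex. It was kept because the rule is by symbol.

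MTA1, a subunit of the NuRD chromatin complex, checks the labels. It stood at 44.55, 43.98 and 47.97 FPKM in siMTA1 libraries 1, 2 and 3, against 65.90, 67.61 and 66.74 FPKM in control libraries 1, 2 and 3 (limma adjusted p = 0.000376). The siMTA1 group thus kept 68.2% of the control level (exact two-sided permutation p = 0.1, the smallest that 3 against 3 libraries allow). The steps of low FPKM values imply 57400000 to 66900000 fragments per siMTA1 library and 43400000 to 65500000 per control library. The 8 epithelial markers fixed as a check were all expressed, with summed levels of 5763.06 to 6413.28 FPKM in siMTA1 libraries and 6658.79 to 6982.39 FPKM in control libraries. Of these 8, KRT8, KRT18 and CLDN3 were lower and CDH1 higher with siMTA1. Of 7 fibroblast markers in the table, COL1A1 was the one above 1 FPKM. The summed level of the 7 was 2.17 to 2.76 FPKM in siMTA1 and 1.94 to 2.01 FPKM in control libraries, with DCN, PDGFRA and THY1 at 0 in all. The 7 blood cell markers in the table summed to 0.32 to 0.52 FPKM in siMTA1 and 0.66 to 0.72 FPKM in control libraries. What part these marker differences have in the helicase results was not tested.

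Nearly all of the helicase genes were well expressed. The 50 tested members had a median level of 22.8 FPKM, against 6.63 FPKM for all 12141 tested genes, and 17 of them lay above percentile 90 of the protein-coding genes of the table. DDX5, a coactivator and splicing factor also known as p68, led by far. Its levels were 396.24, 408.82 and 386.20 FPKM in siMTA1 libraries, against 409.02, 375.57 and 345.32 FPKM in control libraries, and it made up 23.2% to 24.0% of the summed FPKM of all members in siMTA1 libraries and 20.7% to 23.5% in control libraries. Next came DDX42, DDX47, DDX39B and DDX21, with means between 77.3 and 88.5 FPKM over the 6 libraries. The lowest tested member was DDX26B at 2.30 FPKM. Summed over all members, the level was 1662.57 to 1703.04 FPKM in siMTA1 libraries and 1664.95 to 1738.57 FPKM in control libraries, so the groups overlapped in total helicase RNA. In such bulk samples, fewer cells that express a gene and less of its RNA per cell cannot be told apart.

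**Figure D1:**
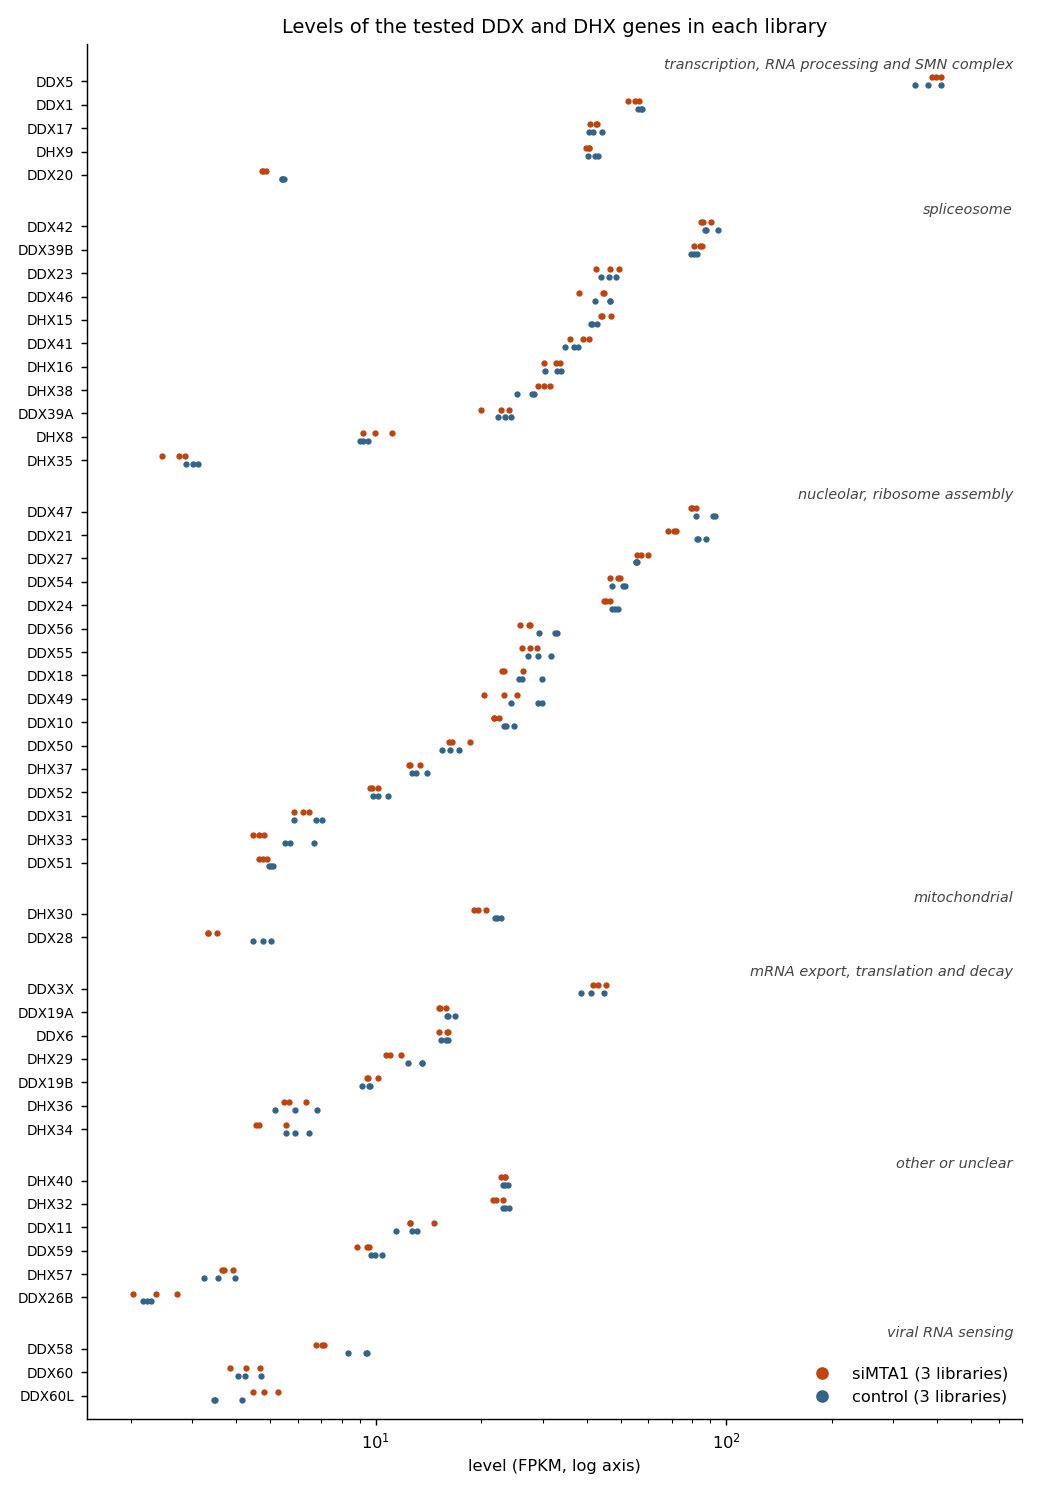
Level of each of the 50 tested DDX and DHX genes in FPKM on a log axis, by role class, with each siMTA1 library (upper row of points) and each control library (lower row) as 1 point. DDX5 stands alone at the right, at 345.32 to 409.02 FPKM, and in most genes the points of the groups lie close together.

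Few helicase genes differed between the groups, and those that did were mostly lower with siMTA1, as were 66.3% of all genes that passed. Of the 50 tested, 6 were lower and 1 was higher at an adjusted p under 0.05 over all tested genes (limma on log2(FPKM + 1)). That is 14% of the members, where 18.2% of all 12141 tested genes passed, 12.1% lower and 6.13% higher, so the share of helicases that passed is not above the background. The count of 7 was 4 without siMTA1 library 1, 3 without siMTA1 library 2, 2 without control library 2 and 4 without control library 3. In the same order 12.3%, 8.80%, 8.62% and 13.7% of all tested genes passed. Without siMTA1 library 3, 4 members were lower and 1 higher, where 12.9% of all tested genes passed. Without control library 1, 6 were lower and 1 higher, where 14.7% passed. With all 6 libraries the lower genes were DDX28, DDX58, DDX21, DHX33, DDX56 and DHX29, and the higher one was DDX60L. The 3 siMTA1 values lay wholly below the 3 control values in 16 tested members and wholly above them in 3. Over all tested genes the shares were 25.9% and 13.2%, together 39.1%, against 32% and 6% of the members. The median log2 fold change of the tested members was −0.05, the same to 2 decimals as that of all tested genes. The 7 that passed had log2 fold changes from −0.39 to 0.32, or 71.5% to 131% of the control mean in FPKM.

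**Figure D2:**
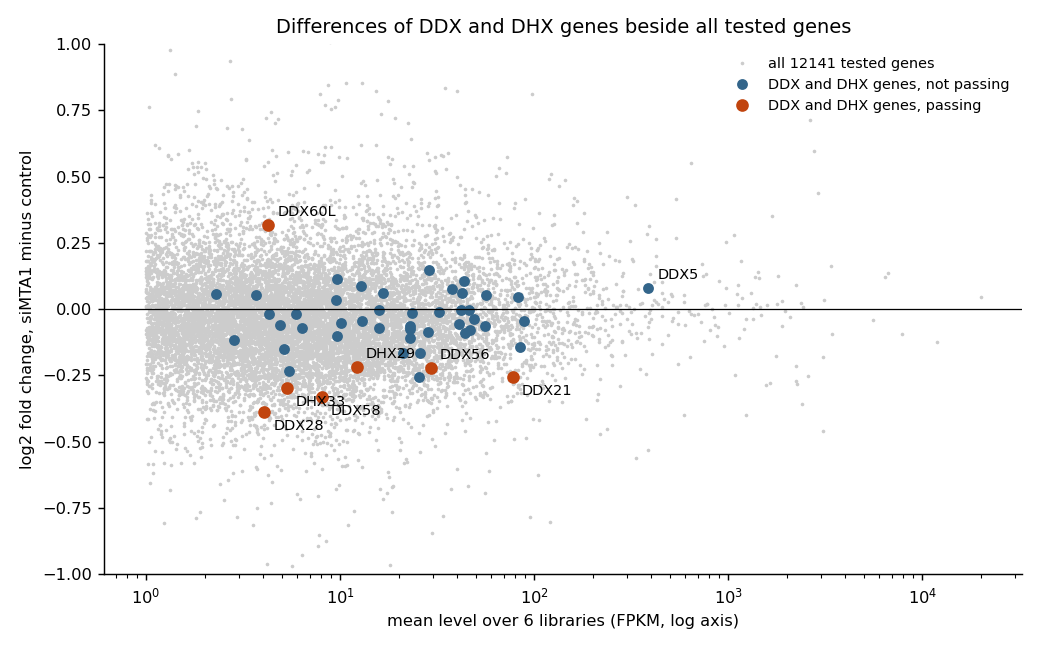
Log2 fold change of siMTA1 minus control against the mean level in FPKM (log axis), for all 12141 tested genes in grey and for the 50 tested DDX and DHX genes in colour. The helicases lie to the right of the bulk and within the middle band of differences, and 23 tested genes outside the family lie beyond the plotted range of 1.

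How many genes were lower depended on the scaling of the libraries. Over all genes 744 were higher and 1463 lower, but these counts were 1000 and 939 under upper-quartile scaling, 1128 and 802 under median centring and 1011 and 895 under quantile normalization. Each of these 3 scalings left 1 helicase higher and 4 lower. The genes that lost their call were DDX56 (adjusted p = 0.0863, 0.102 and 0.0687) and DHX29 (0.0810, 0.107 and 0.110).

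**Figure D3:**
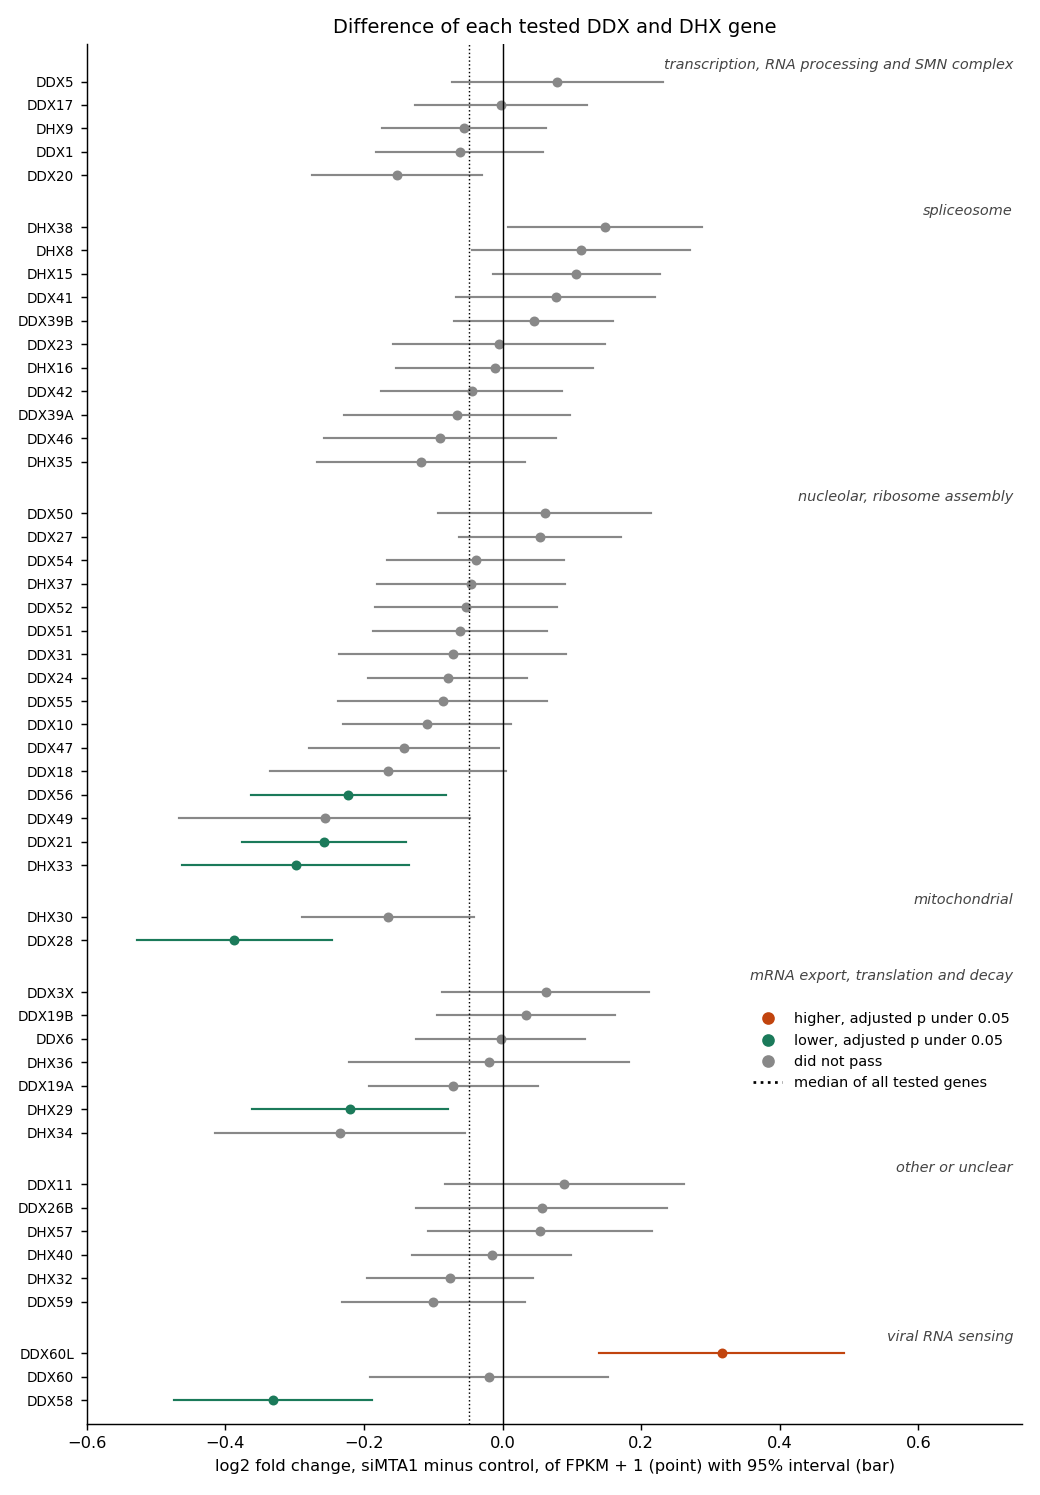
Log2 fold change of each tested DDX and DHX gene (siMTA1 minus control, on log2(FPKM + 1)), with its 95% interval, by role class, where colour marks the 7 genes past the test and the dotted line is the median of all tested genes at −0.05. The nucleolar genes lie mostly left of 0, the splicing genes lie on both sides, and DDX58 and DDX60L of the viral RNA sensing class lie on opposite sides.

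The lowest log2 fold change among the tested members was that of a mitochondrial helicase. DDX28, which assists assembly of the large subunit of the mitochondrial ribosome, stood at 3.33, 3.32 and 3.54 FPKM in siMTA1 libraries, against 4.48, 4.76 and 5.02 FPKM in control libraries. Every siMTA1 value was below every control value. The means were 3.40 ± 0.12 FPKM in siMTA1 and 4.75 ± 0.27 FPKM in control libraries (SD, n = 3 each), so that 71.5% of the control level remained (log2 fold change −0.39, SE 0.06, adjusted p = 0.00427). It passed in all 17 alternative settings that tested it, with adjusted p between 0.000427 and 0.0319. DDX28 lies at chr16:68021274-68023442 on the minus strand (GRCh38, GENCODE 29, as for all gene positions here). Of its exonic bases, 22.5% overlap exons of DUS2, a tRNA dihydrouridine synthase gene on the opposite strand. DUS2 itself stood at 6.58, 7.62 and 7.79 FPKM in siMTA1 libraries and 8.69, 8.37 and 9.88 FPKM in control libraries (log2 fold change −0.26, adjusted p = 0.0483). Libraries were directional, but no source used here says whether strand entered the counting, so reads of DDX28 and DUS2 may have been shared.

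A window of DDX28 is shown because this gene had the lowest log2 fold change of the members. The RefSeq start lies 210 bases inside the GENCODE span given above, so the window lies within that span. It covers the 120 bases before the RefSeq start on the minus strand (GRCh38.p14, chr16:68023233-68023352), in lower case with no motif marked.
DDX28: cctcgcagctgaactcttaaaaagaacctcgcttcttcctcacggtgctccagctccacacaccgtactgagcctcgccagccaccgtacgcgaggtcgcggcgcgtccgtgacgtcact
None of the 5 motifs searched lay in this stretch. Searched on both strands were the E-box CACGTG, the ETS site CCGGAAG, the CCAAT box, the TATA box TATAAA and the core of the interferon-stimulated response element, which is GAAA, then 2 free bases, then GAAA. The last was added after the values had been seen. The other mitochondrial member, DHX30, needed for mitochondrial ribosome assembly as well, stood at 19.65, 19.08 and 20.67 FPKM in siMTA1 libraries, against 22.25, 21.90 and 22.81 FPKM in control libraries. Its groups did not overlap either, but it did not pass (log2 fold change −0.17, SE 0.06, adjusted p = 0.0645, and 0.0251 with array weights). In that last setting 33.3% of all tested genes passed.

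Of the 16 helicases of the nucleolus and ribosome assembly, 3 were lower with siMTA1 and 0 higher, 18.8% of the class against the 18.2% background. A further 2 had an unadjusted limma p under 0.05, which makes 5 of 16, beside 13 of all 50 tested members. The share of all tested genes with such a p was not computed, here or for the classes below. In this class 14 of 16 log2 fold changes were below 0, as were 36 of all 50 tested members. The share below 0 over all tested genes was not computed, but their median was −0.05. Under median centring and under quantile normalization the class count was 11 of 16, and that of all tested members was 25 of 50. The class median of −0.08 became −0.03 and −0.04 there. DDX21 (chr10:68956128-68985073, plus strand), a nucleolar helicase that links rRNA transcription by RNA polymerase I to rRNA processing, was the abundant one of the 3. It stood at 71.88, 68.40 and 70.81 FPKM in siMTA1 libraries, against 82.47, 87.34 and 83.17 FPKM in control libraries. The groups were apart by more than the range within either of them (83.4% of control, log2 fold change −0.26, SE 0.05, adjusted p = 0.0115). The call ended without control library 2 (adjusted p = 0.0623).

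DHX33 (chr17:5440912-5469060, minus strand), which acts in rRNA synthesis, stood at 4.66, 4.81 and 4.46 FPKM in siMTA1 libraries, against 5.52, 5.69 and 6.66 FPKM in control libraries. Its highest value, in control library 3, stood apart from the other control values (log2 fold change −0.30, SE 0.07, adjusted p = 0.0223). The DHX33 call ended without siMTA1 library 1, 2 or 3 (adjusted p = 0.0548, 0.0522 and 0.0604), without control library 2 or 3 (0.0526 and 0.0527) and with no filter on low values (0.104). DDX56 (chr7:44565417-44575051, minus strand), which takes part in assembly of the large ribosomal subunit, stood at 25.75, 27.36 and 27.57 FPKM in siMTA1 libraries, against 29.28, 32.93 and 32.50 FPKM in control libraries (log2 fold change −0.22, SE 0.06, adjusted p = 0.0371). Its groups did not overlap, although siMTA1 library 3 and control library 1 were close. The DDX56 call ended without siMTA1 library 1, 2 or 3 (adjusted p = 0.110, 0.0843 and 0.0595), without control library 2 or 3 (0.140 and 0.0916), and where the filter was dropped (0.113) or set to a mean of 0.1 FPKM (0.0560). Without control library 2, 0 of the 16 nucleolar helicases passed, where 8.62% of all tested genes did.

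Windows of DDX21 and DDX56 are shown because both genes were lower and both windows hold CCGGAAG. Both traits entered the choice, so no link between them can be read from it. Of the 6 members past the test with a window, 33.3% held CCGGAAG, beside 41.2% of the 51 members with one. The lower genes DDX28, DDX58 and DHX29 did not hold it, while DDX27 and DDX50, with positive log2 fold changes, did. The RefSeq starts of DDX21 and DDX56 lie 42 and 1143 bases inside the GENCODE spans, so the DDX56 window lies within the span and the DDX21 window overlaps its edge. Capitals mark matches to the motifs above, on either strand, in the 120 bases before the RefSeq start (GRCh38.p14, chr10:68956050-68956169 on the plus strand for DDX21 and chr7:44573909-44574028 on the minus strand for DDX56).
DDX21: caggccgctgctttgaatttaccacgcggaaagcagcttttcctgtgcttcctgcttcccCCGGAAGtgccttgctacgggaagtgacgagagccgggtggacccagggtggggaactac
DDX56: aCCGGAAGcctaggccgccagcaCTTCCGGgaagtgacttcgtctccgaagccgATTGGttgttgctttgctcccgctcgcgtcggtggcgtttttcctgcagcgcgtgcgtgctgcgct
In DDX56 the capitals mark CCGGAAG, its reverse complement, and CCAAT on the opposite strand.

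The remaining nucleolar helicases did not pass. DDX47, an rRNA processing helicase and the most abundant of the class, stood at 79.21, 79.89 and 81.79 FPKM in siMTA1 libraries, against 92.87, 91.68 and 81.96 FPKM in control libraries. Control library 3 lay next to the siMTA1 values (log2 fold change −0.14, SE 0.06, adjusted p = 0.131, and 0.0170 with array weights). Array weights let 33.3% of all tested genes pass, which also holds for the values with array weights below. Nearly all 75-base windows of the longest DDX47 transcript (99.7%) also occur in a transcript annotated to APOLD1, whose level was 0.55 ± 0.01 FPKM in siMTA1 and 0.38 ± 0.08 FPKM in control libraries (SD, n = 3 each). DDX49 had a log2 fold change of −0.26, as large as that of DDX21, but with a standard error of 0.09 (adjusted p = 0.0845, 0.0287 without control library 1 and 0.00768 with array weights), and its groups overlapped. The other ribosome assembly helicases DDX18, DDX10, DDX24, DDX55, DDX31, DDX52, DDX51, DHX37 and DDX54 had log2 fold changes from −0.17 to −0.04. Of these, DDX10 passed with array weights (adjusted p = 0.0268). DDX27 and DDX50 had positive ones, 0.05 and 0.06.

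The viral RNA sensing class held genes past the test in both directions. DDX58 (chr9:32455705-32526324, minus strand) codes for RIG-I, which detects uncapped viral RNA ends and starts the interferon response. It stood at 7.05, 7.12 and 6.77 FPKM in siMTA1 libraries, against 9.38, 9.46 and 8.32 FPKM in control libraries. All siMTA1 values were lower than all control values, at 77.1% of the control mean (log2 fold change −0.33, SE 0.06, adjusted p = 0.00872). The call held in all 18 alternative settings, with adjusted p between 0.000778 and 0.0493.

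DDX60L (chr4:168356735-168537786, minus strand), an interferon-inducible relative of DDX60, was the member that rose. It stood at 5.26, 4.81 and 4.47 FPKM in siMTA1 libraries, against 4.15, 3.46 and 3.49 FPKM in control libraries, so that the lowest siMTA1 value was just above the highest control value. Its mean was 131% of the control mean (log2 fold change 0.32, SE 0.08, adjusted p = 0.0240). The DDX60L call ended without siMTA1 library 1 or 2 (adjusted p = 0.0753 and 0.0690), without control library 2 or 3 (0.0915 and 0.0626) and with no filter on low values (0.120). The neighbouring gene DDX60, thought to assist RIG-I, stood at 4.68, 3.85 and 4.28 FPKM in siMTA1 libraries, against 4.70, 4.25 and 4.06 FPKM in control libraries. Those values overlapped throughout (log2 fold change −0.02, SE 0.08, 95% interval −0.19 to 0.15). DHX58, which codes for the RIG-I relative LGP2, was too low to be tested, at 0.46, 0.43 and 0.33 FPKM in siMTA1 libraries and 0.48, 0.48 and 0.49 FPKM in control libraries.

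Windows of DDX58 and DDX60L are shown because these genes of the viral RNA sensing class differed in opposite directions. Their RefSeq starts lie 128 and 57294 bases inside the GENCODE spans, so both windows lie within those spans. Capitals mark motif matches in the 120 bases before the RefSeq start on the minus strand (GRCh38.p14, chr9:32526197-32526316 for DDX58, which RefSeq calls RIGI, and chr4:168480493-168480612 for DDX60L).
DDX58: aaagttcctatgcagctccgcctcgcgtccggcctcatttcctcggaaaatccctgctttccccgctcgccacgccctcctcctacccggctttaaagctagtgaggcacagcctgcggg
DDX60L: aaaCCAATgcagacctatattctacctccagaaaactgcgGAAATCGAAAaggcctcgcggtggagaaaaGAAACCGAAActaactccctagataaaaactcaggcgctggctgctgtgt
The DDX60L window holds CCAAT once and the element core in 2 places, while none of the 5 motifs lies in the DDX58 stretch. The core also lies in the 300-base windows of DDX60 and DHX15, so 3 of the 51 members with a window hold it (5.88%), beside 2.70% of 8335 promoters of tested genes and 3.18% of 15843 protein-coding promoters.

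Other genes of the RIG-I pathway were taken from a list of 14, of which 13 were tested. Of these, 6 were lower and 2 higher, 61.5% against the 18.2% background, and the middle log2 fold change of the 13 was −0.19. The list was drawn up with earlier results known, so its share is no independent evidence. IKBKE, a kinase that activates interferon regulatory factors, was at 1.15 FPKM in siMTA1 and 1.98 FPKM in control libraries (log2 fold change −0.47, adjusted p = 0.00280). TRAF3, an adaptor below MAVS, had a log2 fold change of −0.41 (adjusted p = 0.00710), and USP18, which removes ISG15 from proteins, one of −0.28 (adjusted p = 0.0150). IRF7, a transcription factor of the interferon response, was higher, at 12.3 FPKM in siMTA1 and 8.29 FPKM in control libraries (log2 fold change 0.50, adjusted p = 0.0114). IFIH1, which codes for the second RNA sensor MDA5, was lower as DDX58 was (log2 fold change −0.29, adjusted p = 0.0425). MAVS, the adaptor that both sensors use, did not pass (log2 fold change 0.11, adjusted p = 0.226). IFNB1, the interferon gene, was under 1 FPKM and not tested.

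Among the 7 tested helicases of mRNA export, translation and decay, 1 was lower and 0 higher (14.3%, against 18.2% of all tested genes). The lower gene was DHX29 (chr5:55256245-55307722, minus strand), which binds the small ribosomal subunit and helps it scan structured leaders. It stood at 11.78, 10.97 and 10.68 FPKM in siMTA1 libraries, against 13.52, 13.58 and 12.34 FPKM in control libraries. The ranges did not overlap, but siMTA1 library 1 and control library 3 were near each other (log2 fold change −0.22, SE 0.06, adjusted p = 0.0389). The DHX29 call ended without siMTA1 library 2 or 3 (adjusted p = 0.111 and 0.102), without control library 1 or 2 (0.0840 and 0.139), under TPM scaling (0.0612), with no filter on low values (0.113) and with a filter at 0.1 FPKM (0.0592).

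DDX3X, a translation factor for structured mRNAs and the most abundant of this class, stood at 45.38, 41.65 and 43.06 FPKM in siMTA1 libraries, against 44.88, 41.21 and 38.57 FPKM in control libraries. Its values overlapped (log2 fold change 0.06, 95% interval −0.09 to 0.21, adjusted p = 0.543). DDX6, a helicase of decapping and mRNA storage, averaged 15.8 FPKM in both groups (log2 fold change −0.0029, 95% interval −0.13 to 0.12). DHX34, a nonsense-mediated decay factor, had a log2 fold change of −0.23 with overlapping groups (adjusted p = 0.0697, 0.0296 without siMTA1 library 3 and 0.0495 with array weights). In that last setting 33.3% of all tested genes passed. The export helicase genes DDX19A and DDX19B lie side by side on chromosome 16 and share 19.9% of the 75-base windows of DDX19A and 17.6% of those of DDX19B, so their reads could have been split between them. The locus AC012184.2 also holds 61.9% of the DDX19A windows and 37.9% of the DDX19B windows. They averaged 15.5 and 9.70 FPKM in siMTA1 and 16.3 and 9.45 FPKM in control libraries, and neither passed. DHX36, which unwinds G-quadruplexes, had a log2 fold change of −0.02 (SE 0.09).

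Of the 11 helicases of the spliceosome, 0 passed in either direction, against 18.2% of all tested genes, and 1 had an unadjusted limma p under 0.05. With array weights 1 of the 11 passed, DHX15, which was higher (adjusted p = 0.0443), against 33.3% of all genes in that setting. The class median was −0.01, and 6 of 11 log2 fold changes were below 0, against 3 or 4 of 11 under the 4 other scalings. Of all 50 tested members 36 were below 0, and 25 to 32 under those scalings. DDX42, which works beside the branch site complex SF3B and had the highest level of the class, stood at 85.00, 90.62 and 85.63 FPKM in siMTA1 libraries, against 86.79, 95.05 and 87.81 FPKM in control libraries. These values overlapped (log2 fold change −0.04, 95% interval −0.17 to 0.09). DHX38, the human PRP16 that remodels the spliceosome after the first step, stood at 29.01, 31.50 and 30.26 FPKM in siMTA1 libraries, against 25.35, 28.34 and 27.99 FPKM in control libraries. All siMTA1 values were above all control values, but the gene did not pass (log2 fold change 0.15, SE 0.06, adjusted p = 0.124).

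DHX15, the human PRP43 that takes spent spliceosomes apart, was the other splicing helicase with siMTA1 values wholly above control, at 45.1 ± 1.69 FPKM in siMTA1 and 41.8 ± 0.77 FPKM in control libraries (SD, n = 3 each, adjusted p = 0.189). DHX8, the human PRP22 that releases mRNA, had a log2 fold change of 0.11 with overlapping groups. DDX39B, or UAP56, which loads early splicing and export factors, averaged 83.5 ± 2.05 FPKM in siMTA1 and 80.9 ± 1.52 FPKM in control libraries (SD, n = 3 each). Of its 75-base windows, 94.0% also lie in the readthrough gene ATP6V1G2-DDX39B, listed at 0.37 FPKM in siMTA1 and 0.29 FPKM in control libraries. DDX23 and DDX46, the human PRP28 and PRP5, and DHX16, the human PRP2, had log2 fold changes of −0.01, −0.09 and −0.01. DDX41, which is mutated in familial myeloid leukaemia, DDX39A, a close copy of DDX39B, and DHX35, found in late spliceosomes, had 0.08, −0.07 and −0.12.

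Of 5 helicases of transcription, RNA processing and the SMN complex, 0 passed, against 18.2% of all tested genes, and 1 had an unadjusted limma p under 0.05. With array weights 1 of the 5 passed, against 33.3% of all genes in that setting. That gene was DDX20, or Gemin3, a partner of SMN in the assembly of spliceosomal particles, at 4.86, 4.77 and 4.75 FPKM in siMTA1 libraries, against 5.41, 5.48 and 5.42 FPKM in control libraries. The 3 values of each group were tightly spaced and did not overlap, yet the difference did not pass (log2 fold change −0.15, SE 0.05, adjusted p = 0.0807, and 0.0226 with array weights). DDX5 had a log2 fold change of 0.08 with a 95% interval of −0.07 to 0.23, and DDX17, its close paralog, one of −0.0020 (SE 0.06). DDX1, which acts in tRNA ligation, and DHX9, which unwinds RNA and DNA hybrids, had −0.06 and −0.06.

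In the class of broad or unclear role, 0 of 6 passed with limma, against 18.2% of all tested genes, 0 had an unadjusted p under 0.05, and none passed in any of the 18 alternatives. DHX40 was the most abundant of them, at 23.2 ± 0.30 FPKM in siMTA1 and 23.5 ± 0.41 FPKM in control libraries (SD, n = 3 each). DDX59 had the smallest adjusted p of the class, 0.257, with a log2 fold change of −0.10. DDX11, a DNA helicase of sister chromatid cohesion, shares 21.0% of its 75-base windows with the pseudogene DDX12P and 23.2% with AC009533.1, so its level of 13.3 ± 1.24 FPKM in siMTA1 and 12.4 ± 0.88 FPKM in control libraries is uncertain (SD, n = 3 each). DHX40 likewise shares 20.8% of its windows with DHX40P1, which was listed at 0 in every library. DHX32, DHX57 and DDX26B had log2 fold changes of −0.08, 0.05 and 0.06.

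The 6 members that were not tested were at or near 0. DDX4, the germ cell marker known as Vasa in flies, averaged 0.01 FPKM in siMTA1 and 0.03 FPKM in control libraries, and DDX25, a testis helicase, averaged 0.02 FPKM in siMTA1 and 0.05 FPKM in control libraries. DDX43, a cancer-testis antigen, was above 0 in 1 library, siMTA1 library 2 at 0.03 FPKM, and so was DDX53, another such antigen, at 0.01 FPKM. DDX3Y, the Y-linked copy of DDX3X, was listed at 0 except for 0.01 FPKM in 1 control library, and DHX58 is described above. For DDX25 the 3 siMTA1 values, 0.02 FPKM each, lay below the control values of 0.06, 0.06 and 0.04 FPKM, at 13 to 38 implied fragments per library. The implied number of fragments was at most 8 per library for DDX4, DDX43, DDX53 and DDX3Y.

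For the 43 tested members that did not pass, the intervals limit how large a difference could have been under the scaling as reported. In 40 of them the whole 95% interval lay within 0.32 of 0 on the log2(FPKM + 1) scale. The exceptions were DDX18, DDX49 and DHX34, whose intervals reached −0.34, −0.47 and −0.41. Other scalings move these values, and the scale understates the fold changes of low genes, so the bound is looser for them. Of the 34 members with at least 10 FPKM, 3 passed, and of the 16 below it, 4 passed. Over all tested genes 20.6% passed at 10 FPKM or more and 16.7% below it. The median standard error was 0.06 for the members and 0.07 for all tested genes.

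**Figure D4:**
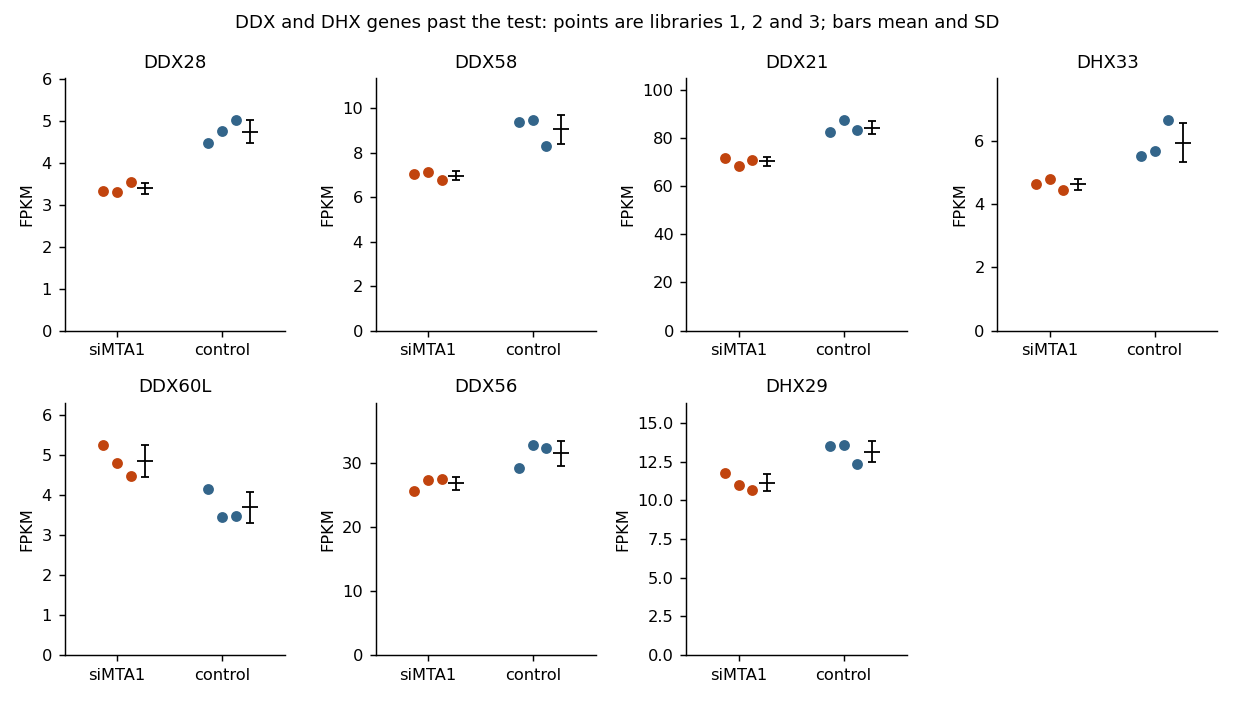
FPKM in each library for the 7 DDX and DHX genes past the test, siMTA1 left and control right, with the mean and SD of 3 libraries beside the points and each axis starting at 0. In 6 genes every siMTA1 point lies below every control point, and in DDX60L every siMTA1 point lies above.

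Paralogs within the family were set against each other inside each library, so that a scaling of the whole library would largely cancel. Of 6 pairs, chosen as closest relatives after the values had been seen, 4 had log2 ratios whose groups did not overlap. For single genes that share was 39.1%, and it was not computed over other pairs, so the count is a description only. Each of these 4 pairs had an exact two-sided permutation p of 0.1, the smallest possible, and 0.15 when adjusted over the 6 pairs, so no pair can pass at this size. DDX60L, DDX21 and DHX29, the first genes of their pairs, had passed the test alone, so their ratios partly restate those calls. DDX19A and DDX19B share sequence with each other and with AC012184.2, as given above. The log2 ratio of DDX60L to DDX60 was 0.14, 0.26 and 0.05 in siMTA1 libraries, against −0.15, −0.24 and −0.17 in control libraries. In FPKM, DDX60L was thus the higher of the pair in every siMTA1 library and the lower in every control library. That order depends on the gene lengths used, so only the shift of the ratio between groups can be read. With GENCODE 29 exonic lengths of 12156 and 6750 bases, the implied fragments per library were 2189 to 3912 for DDX60L. For DDX60 they were 1377 to 1813, fewer in every library. These neighbours on chromosome 4 share 0.17% of the 75-base windows of DDX60 and 0.15% of those of DDX60L. The ratio of DDX21 to DDX50, its nucleolar paralog, was 1.90, 1.98 and 2.06 in siMTA1 libraries, against 2.19, 2.35 and 2.36 in control libraries. For DHX29 over DHX57 the difference of the mean ratio was −0.27, and for DDX19A over DDX19B it was −0.11. The ratios of DDX5 to DDX17 (exact permutation p = 0.6) and of DDX39B to DDX39A (exact permutation p = 0.2) overlapped between the groups.

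The promoters of the members were read from RefSeq, from 250 bases before to 50 bases after each start (GRCh38.p14), and 51 of the 56 members were found there, all but DDX18, DDX49, DDX52, DHX33 and DHX58. The 51 include 5 that were not tested. The median GC content was 60.7% for the 51 and 61.0% for the 46 tested ones, against 66.0% for the promoters of 8335 tested protein-coding genes. Tested protein-coding genes numbered 10958, and the 8335 promoters were matched by symbol alone, whereas members were also matched by gene identifier and synonym. CCGGAAG lay in 21 of 51 member promoters (41.2%), beside 20.6% of the promoters of tested genes and 14.2% of all 15843 protein-coding promoters. Among the nucleolar helicases 7 of 12 held it (58.3%), and among the 6 members past the test with a window 2 did (33.3%). CACGTG lay in 8 of 51 (15.7%), beside 10.4% of the promoters of tested genes, and in 0 of the 6 past the test. CCAAT lay in 23 of 51 (45.1%, beside 36.8% of the promoters of tested genes) and in 4 of the 6 past the test, and TATAAA in 2 of 51 (3.92%, beside 4.75%). A match is a run of letters and was not tied to any factor here.

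RNA helicases outside the DDX and DHX names were read from a list of 22, of which 19 were tested, with 1 higher and 2 lower (15.8%, near the 18.2% of all tested genes). HELZ2, an interferon-inducible helicase, stood at 4.17, 4.08 and 4.30 FPKM in siMTA1 libraries, against 2.77, 3.39 and 3.41 FPKM in control libraries (log2 fold change 0.31, adjusted p = 0.0206). YTHDC2, a helicase that reads methylated adenine and is needed for meiosis, had a log2 fold change of −0.28 (adjusted p = 0.0409), and IFIH1 is given above. The initiation helicase EIF4A2 and the exon junction helicase EIF4A3 averaged 342.2 and 76.4 FPKM in siMTA1 and 364.5 and 77.9 FPKM in control libraries, and neither passed. SNRNP200, the BRR2 helicase that unwinds the U4 and U6 RNAs, had a log2 fold change of 0.14 (adjusted p = 0.138). A list of 31 genes held known or possible helicase cofactors, most of them proteins with MIF4G domains or G-patches. Of the 31, 1 was lower and 0 higher (3.23%, against 18.2% of all tested genes). This was EIF4G2, a translation initiation scaffold, at 68.7 ± 3.17 FPKM in siMTA1 and 81.0 ± 1.21 FPKM in control libraries (SD, n = 3 each, log2 fold change −0.23, adjusted p = 0.0190).

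**Figure D5:**
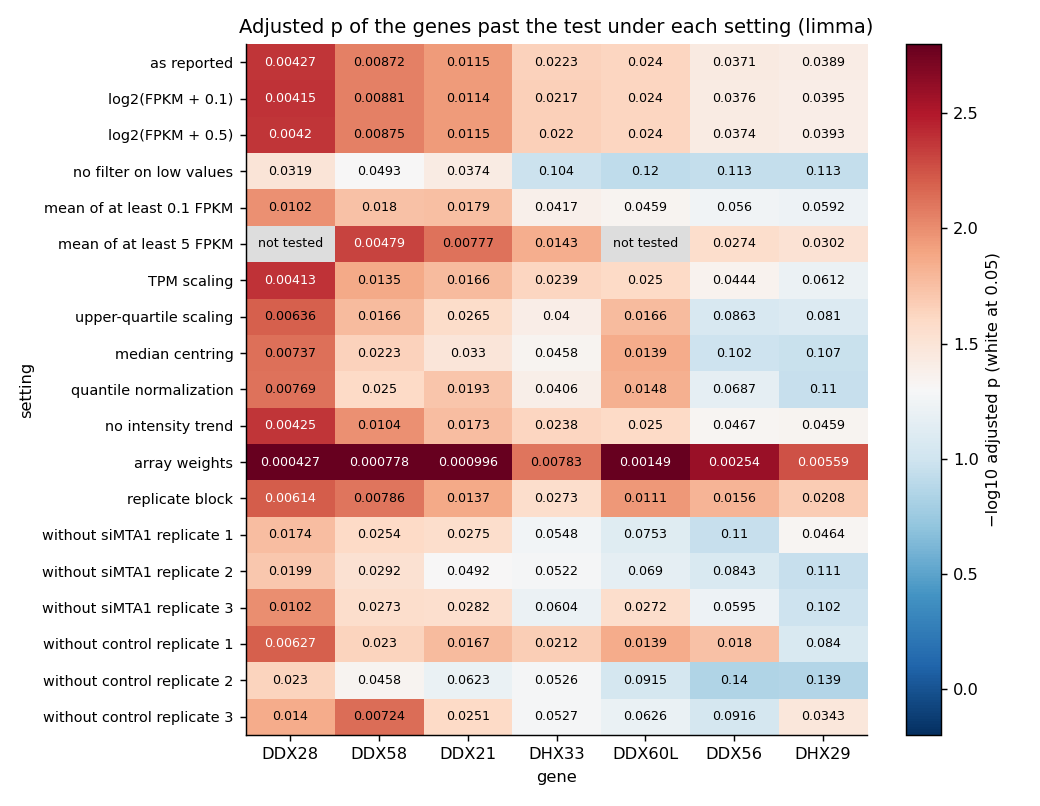
Limma adjusted p of the 7 DDX and DHX genes past the test (columns) as reported and under each of 18 alternative settings (rows), with colour as −log10 of that p, white at 0.05 and grey where the gene was not tested. DDX28 and DDX58 stay under 0.05 in every setting that tested them, and DDX21 in all but the one without control library 2.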

How the data were processed

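Directional paired-end libraries were made from polyA RNA of 3 siMTA1 and 3 control HCT116 samples, per the labels' protocols. Tools named, without roles, are cutadapt, TopHat2 and edgeR with GRCh38, per the submitters' processing notes. No source used here names the counter, its strand setting or the annotation. The authors deposited FPKM values for 36651 genes, per the file headers one column per library, to 2 decimals. Columns were tied to samples by name.

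A two-sided limma test (3.58.1, R 4.3.3, intensity trend, no covariates) was run on log2(FPKM + 1) for every gene whose mean reached 1 FPKM, and p-values were adjusted by Benjamini and Hochberg over 12141 genes. Fold changes on this scale understate those of low genes. The test was also run on simulated data with independent noise for each gene. That check cannot cover shifts shared within a library or the choice of scaling. Members, role classes, lists and the rule for named genes were chosen with earlier results of these data known. That rule named MTA1, all members past the threshold, and per class the most abundant member and, where none passed, the one with the smallest adjusted p. From the lists of other genes it named up to 4 that passed. Further members are named to account for all of them, and some list genes for their role, with values seen. Depth was read from genes under 150 bases, where low values are steps of 1 fragment. Positions and shared 75-base windows came from GENCODE 29, in which all 56 members were found. Figures were made with matplotlib 3.10.9.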

Additional observations from a re-analysis of the deposited data

How the results depend on the processing

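The 18 alternatives covered pseudocounts, filters, scalings, limma settings, a replicate block and each library left out. MTA1 stayed lower and past the threshold in all of them. The count of helicases past the test was 7 of 50 as reported, where 18.2% of all tested genes passed. With no filter on low values it was 3 of 56 (3 lower, 0 higher), where 676 of 33126 genes passed in all (2.04%). With array weights it was 14 of 50 (12 lower, 2 higher), where 4049 genes passed in all (33.3%). With the replicate number as a block it was 12 of 50 (10 lower, 2 higher). There 2039 genes were lower and 992 higher in all, 24.965% of those tested. All 7 also passed with array weights and with the block, and the block added DDX49 (adjusted p = 0.0141), DHX34 (0.0238), DDX18 (0.0328), DHX30 (0.0352) and DHX38 (0.0490). Libraries with the same number deviated from their group means with correlations of 0.33, 0.02 and 0.22, and those with different numbers with −0.28 to 0.07. Numbers 1 and 3 thus gave the highest values, whereas siMTA1 library 2 and control library 2 each correlated best with a library of another number. The labels state no pairing and these values do not settle it, so the block was not used in the main test. Where a mean of 5 FPKM was required, 0 helicases were higher, since DDX60L was not tested. Leaving out 1 library gave 2 to 7 helicases past the test, 2 to 6 lower and 0 to 1 higher, the fewest without control library 2, and 1046 to 1780 genes in all. DDX28 and DDX58 were the 2 that passed without control library 2. The median log2 fold change of the helicases moved with the scaling, to −0.0403 under TPM, −0.0117 under upper-quartile scaling, −3.11e-05 under median centring and −0.00651 under quantile normalization, beside medians over all genes of −0.0393, −0.0112, 0.00531 and −0.00723. It lay between −0.0677 and −0.0461 with a library left out. Of the 50 tested members 36 were below 0 as reported, 27 under upper-quartile scaling, 25 under median centring and 25 under quantile normalization. DDX42 and DHX40, which did not pass in any setting, were among those that changed sign. Their values were 7.84e-05 and 0.0273 under upper-quartile scaling, 0.00965 and 0.0383 under median centring, and 0.00435 and 0.0230 under quantile normalization. The cause of these changes was not tested. Intervals cover the spread between these libraries only.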

Other observations

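Besides the protein-coding members, 18 genes of the table carry a DDX or DHX symbol, 9 of them processed pseudogenes, 6 other pseudogenes and 3 antisense genes. DDX12P, a pseudogene copy of DDX11, was the only one of the 18 to reach a mean of 1 FPKM, at 1.86, 2.26 and 1.65 FPKM in siMTA1 libraries, against 1.66, 1.63 and 1.66 FPKM in control libraries, and it did not pass (limma adjusted p = 0.272). DDX11L2 averaged 0.76 FPKM in siMTA1 and 0.98 FPKM in control libraries, and 3 of the 18 were listed at 0 throughout.

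EIF4A1, the major initiation helicase, was listed at 5.03, 5.73 and 4.21 FPKM in siMTA1 libraries, against 6.31, 5.65 and 6.06 FPKM in control libraries. The readthrough gene SENP3-EIF4A1, named for both genes it joins, was listed at 276.38, 274.28 and 288.02 FPKM in siMTA1 libraries and 272.85, 278.15 and 278.58 FPKM in control libraries. No source used here says how fragments common to both were assigned, so the level of EIF4A1 in this table is uncertain.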
